A study of Mus musculus with 23 samples.

Results

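The change from the late zygote to the late 2-cell embryo was described in the control embryos of a siRNA study of early mouse development. It rests on 6 of the 23 RNA-seq libraries of the study, namely all 3 siCtrl zygote libraries and all 3 siCtrl 2-cell libraries, and no knockdown library entered the comparison. The labels give the strain as B6D2F1. By the study's methods that was the strain of the females that gave the oocytes, and the sperm came from C57BL/6 males. The oocytes had received, while arrested in meiosis at the germinal vesicle stage, a control siRNA directed at a random sequence. After maturation in vitro and fertilization, pools of embryos freed of the zona pellucida were collected as late zygotes at 14 h and late 2-cell embryos at 36 h after fertilization, by the sample labels. The paper's text gives later hours for both stages and fertilization by sperm injection, where the labels name incubation with sperm, and which of these holds for the libraries cannot be told from the values. Every embryo was thus an injected, in vitro matured one, and neither uninjected nor naturally matured embryos stood beside them. The study used these controls against knockdown of Etv5, Mlx or Rfx1. The study describes its experiments as repeated for each group, but the sources used here do not tie each library of a stage to a collection of its own, so a p-value reflects how these libraries vary, and part of that variation may be technical.

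A mouse oocyte stops transcription before ovulation and enters development with a store of mRNA made during its growth. Translation, storage and timed removal of that mRNA carry the embryo through fertilization and the first cleavage. Removal begins by shortening of poly(A) tails through the CCR4-NOT deadenylase and its adaptors, before decapping and decay. Transcription from the embryo's own genome starts weakly in the zygote and broadly in the late 2-cell embryo, where a transient set of genes linked to the Dux factor and to MERVL elements comes on together with genes that every growing cell needs.

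Levels were FPKM per gene, that is fragments scaled to transcript length and library size, summed over the transcripts of a gene. They were rescaled between libraries by the median ratio and are called FPKM from here on. A gene was called higher or lower when limma on log2(FPKM + 1) gave a Benjamini-Hochberg adjusted p below 0.05 together with more than a 2-fold change, so that log2 differences are on the log2(FPKM + 1) scale and understate the change of genes with low values. FPKM is a share of what was sequenced. A lower value therefore means a smaller share of the library, and total mRNA per embryo was not measured. Reverse transcription was primed on poly(A) tails, and the loss of a transcript and the shortening of its tail cannot be told apart in these values. In the same way, a rise can reflect new transcript or a longer tail on stored transcript, and these cannot be told apart either. Nor can fewer cells of a type be told apart from less RNA per cell.

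Depth ran from 580.2 to 756.1 Mb of aligned bases in zygotes and from 726.5 to 967.0 Mb in 2-cell embryos. The stages were far apart, with Pearson's r of log2 levels across genes of 0.401 to 0.458 between stages, 0.959 to 0.974 among zygotes and 0.911 to 0.916 among 2-cell embryos. Zygote replicate 1 stood apart from replicates 2 and 3 in the direction of the 2-cell embryos. Over the 1395 genes that were more than 8-fold higher in 2-cell embryos, its median was 1.54 FPKM against 0.554 and 0.642 in the other zygote libraries, and it held the highest zygote value of 828 of the 1249 such genes that had any. Leaving this library out gave 3987 genes higher and 2818 lower. The counts were 3931 and 2822 without replicate 2 and 3932 and 2833 without replicate 3. They do not set the part of replicate 1 apart from the loss of any zygote library. Zygote markers listed for this work (Gdf9, Bmp15, Zp3, Mos, Btg4, H1foo and Oosp1) summed to 6524 to 7596 FPKM in zygotes and 676 to 721 in 2-cell embryos. Late 2-cell markers (Zscan4c, Zscan4d, Zfp352, Tcstv1, Tcstv3, Usp17la, Tdpoz1 and Gm8300) summed to 19.2 to 50.5 and 393 to 585. Tcstv1 and Tcstv3, 2 of these 8, were listed at 0 in all 6 libraries. Among 15 cumulus and granulosa markers 5 were listed at 0 in all 6 libraries, and their sum was 6.68 to 9.78 FPKM in zygotes and 44.0 to 73.9 in 2-cell embryos, the largest part from Amhr2 at 25.9, 61.2 and 34.7. Sperm markers summed to 24.5 to 37.5 FPKM in zygotes and 2.62 to 6.59 in 2-cell embryos, with 7 of 12 listed at 0 in every library and Prm2, a protamine that packs sperm DNA, at 32.6, 23.1 and 37.2 in zygotes.

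Most genes tested differed between the stages. Of 11123 genes tested, 4112 (37.0%) were higher and 2989 (26.9%) were lower in 2-cell embryos, and 4022 were neither. Beyond 8-fold, 1395 genes were higher and 518 lower. The median log2 difference over all genes tested was 0.27, or 0.52 in the FPKM as deposited, and list medians below are to be read against the first of these. Counts of risers and fallers in a list are to be read against the 37.0 and 26.9% called. In 6997 of the 7101 called genes the lowest library of one stage lay above the highest of the other, and this was so for 75.2% of all genes tested. FPKM was also spread more evenly over genes in 2-cell embryos. The 100 most abundant genes held 42.4, 45.3 and 44.4% of FPKM in the zygote libraries and 23, 22.8 and 23.3% in the 2-cell libraries, while genes at 1 FPKM or more numbered 9350, 8961 and 8994 in zygotes and 10567, 10569 and 10729 in 2-cell embryos. The stages did not overlap in either measure, and the exact permutation test, two-sided, gave p = 0.1 for both, the smallest that 3 libraries against 3 allow.

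By share, genes called lower made up 65.7 to 67.3% of zygote FPKM and 12.7 to 13.4% of 2-cell FPKM, and genes called higher went from 5.85 to 6.62% to 55.3 to 57.1%. This describes the calls and is no test of them. Of the 100 most abundant zygote genes 78 were lower, 1 was higher and 21 were neither, and of the 100 most abundant 2-cell genes 63 were higher, 12 lower and 25 neither, with 29 genes in both sets.

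**Figure D1:**
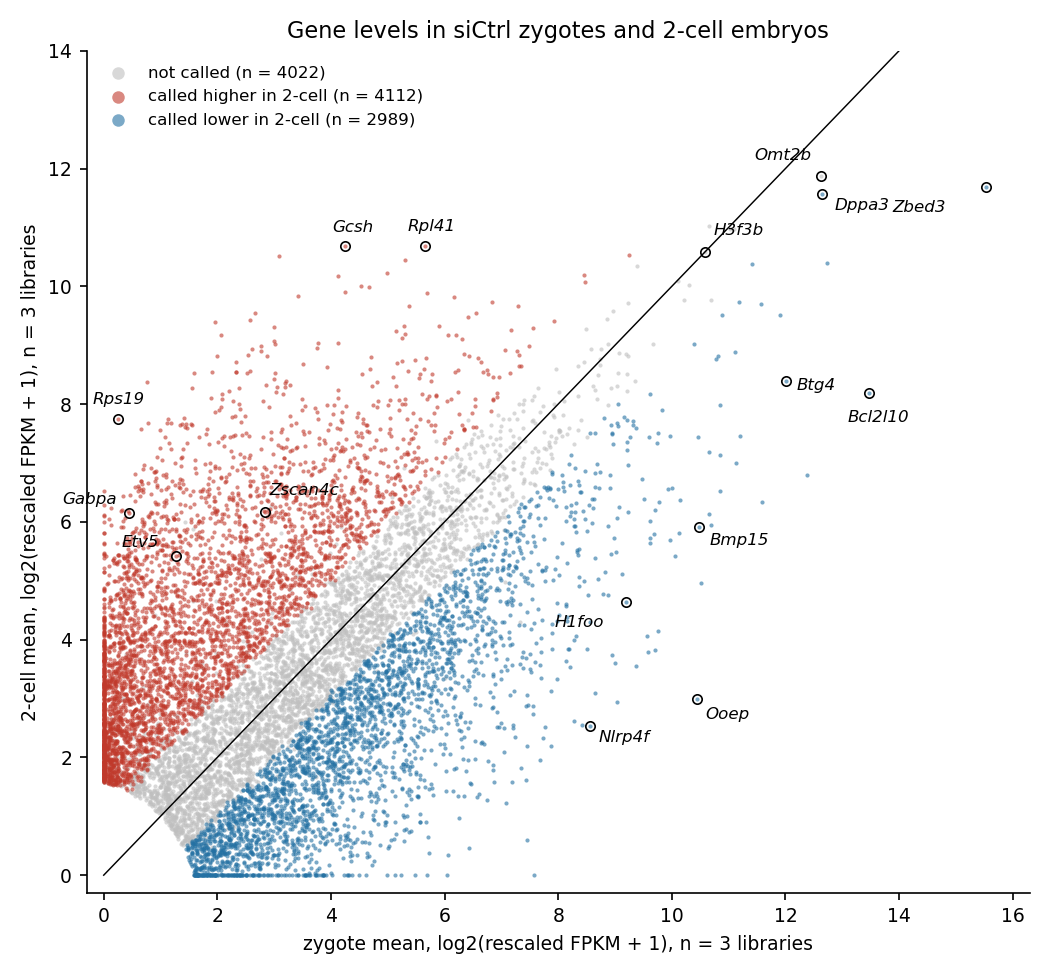
Mean level of each of the 11123 genes tested in siCtrl zygotes (x axis) and siCtrl 2-cell embryos (y axis), both as log2(rescaled FPKM + 1) over 3 libraries, with the line of equal levels and named genes circled. The 4112 genes called higher lie above the line and the 2989 called lower below it, and the most abundant zygote genes, such as Zbed3 and Bcl2l10, are below it.

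The subcortical maternal complex, which holds the egg's cortical lattice together and is required for cleavage, was lower in 2-cell embryos in every member tested. All 6 of its tested members fell, with a median log2 difference of -2.59, and its share of FPKM was 8.49, 13.8 and 11.8% in the zygote libraries and 0.987, 0.953 and 0.814% in the 2-cell libraries. Nearly all of that share was Zbed3, which alone held 8.11, 13.4 and 11.5% of FPKM in zygotes, while the other members together went from 0.381, 0.365 and 0.366% to 0.0133, 0.0135 and 0.0135%. Zbed3, a member also known as an axin partner, was the most abundant gene of the zygote, at 33411, 59559 and 49249 FPKM, and stood at 3513, 3509 and 2819 FPKM in 2-cell embryos. Every zygote library was above every 2-cell library, a 14.5-fold difference (log2 difference -3.82, SE 0.203, adjusted p = 4.7e-06). With no filter on low values the limma fit gave Zbed3 the same difference with an SE of 15.8 and an adjusted p of 1, where the SE of its 6 values without moderation was 0.267. Ooep, an RNA-binding KH-domain scaffold of the complex, went from 1378, 1416 and 1381 FPKM to 7.74, 5.65 and 7.57 FPKM, 199-fold lower (log2 difference -7.46, SE 0.161, adjusted p = 1.1e-06). The 3 zygote values of Ooep lay close together and far above every 2-cell value. Nlrp5, Tle6 and Khdc3 fell less, by 2.71, 1.55 and 2.46 on the log2 scale.

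The promoters of a few genes are printed because the stages differed most in them within their lists, each from 250 bases before to 50 bases after the RefSeq start, from the mm9 genome. Ooep lies at chr9:78224710-78226395 on the minus strand and its promoter window at chr9:78226346-78226645. Pabpn1l, an oocyte poly(A)-binding protein that works with the decay adaptor Btg4, lies at chr8:125143371-125146635 on the minus strand and its window at chr8:125146586-125146885. Capitals mark a CCAAT box (CCAAT) or a GC box (GGGCGG), on either strand.
Ooep: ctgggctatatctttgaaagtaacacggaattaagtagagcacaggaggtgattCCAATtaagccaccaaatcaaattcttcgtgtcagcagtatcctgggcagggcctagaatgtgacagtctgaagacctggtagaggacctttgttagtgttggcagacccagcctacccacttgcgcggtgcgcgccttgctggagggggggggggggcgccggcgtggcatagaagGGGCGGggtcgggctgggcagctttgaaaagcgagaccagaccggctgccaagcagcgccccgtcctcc
Pabpn1l: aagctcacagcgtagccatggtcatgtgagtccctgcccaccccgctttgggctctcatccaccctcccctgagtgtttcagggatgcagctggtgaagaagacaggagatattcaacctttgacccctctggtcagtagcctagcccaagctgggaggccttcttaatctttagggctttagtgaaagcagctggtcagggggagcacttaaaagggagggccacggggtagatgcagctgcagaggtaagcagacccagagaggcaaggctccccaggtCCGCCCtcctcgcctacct
The Ooep window held CCAAT at -196 and GGGCGG at -19, counted from the start site, and 15 CpG. That of Pabpn1l held GGGCGG on the minus strand at 31 and 5 CpG. The 518 genes that were more than 8-fold lower had a median of 14.5 CpG and GGGCGG in 48.1% of their windows, against 21 CpG and 63.9% for all genes tested, as a description.

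Most factors that hold maternal mRNA in store fell. Of 15 storage and translational control genes 13 fell and 1 rose, at a median of -2.40. Zar1, an oocyte RNA-binding protein, stood at 327, 613 and 536 FPKM in zygotes and 14.3, 14.5 and 7.97 in 2-cell embryos (log2 difference -5.21, SE 0.306, adjusted p = 6.5e-06). Zygote replicate 1 was the lowest of the zygotes for Zar1 and still far above every 2-cell library. Dazl, which promotes translation of germline mRNAs, was 83.3-fold lower and Pabpc1l, an oocyte poly(A)-binding protein, 44.0-fold lower.

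Of 26 genes of deadenylation, decapping and decay 13 fell and 5 rose, at a median of -0.98. Btg4, the adaptor that brings CCR4-NOT to maternal mRNA, was among the most abundant mRNAs of the zygote, at 4231, 3797 and 4298 FPKM, against 332, 315 and 354 FPKM in 2-cell embryos (log2 difference -3.62, SE 0.106, adjusted p = 2.5e-06). The libraries of a stage agreed closely for Btg4 and the stages did not overlap. Cnot6l, a catalytic deadenylase, fell from 251, 183 and 184 FPKM to 12.8, 14.5 and 18.8, and Pabpn1l from 120, 138 and 148 to 2.04, 0.612 and 1.33. The m6A reader Ythdf2, which also directs decay, moved the other way, from 20.6, 24.9 and 17.8 to 140, 173 and 163 FPKM (log2 difference 2.86, SE 0.187, adjusted p = 8.6e-06). No library of the other stage reached these values.

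Oocyte-secreted factors and the genes of meiotic arrest held more members that fell than rose. Of 10 egg coat and secreted factor genes 6 fell and 1 rose, at a median of -1.55. Bmp15, a growth factor that the oocyte sends to its cumulus cells, was 23.9-fold lower and its partner Gdf9 3.70-fold lower. Zp3, a zona pellucida protein, stood at 20.6, 31.9 and 27.1 FPKM in zygotes and 17.9, 19.2 and 19 in 2-cell embryos and was not called (adjusted p = 0.085). Among 25 genes of meiotic arrest and maturation 14 fell and 4 rose. Fbxo43, which keeps the anaphase-promoting complex inhibited in the egg, fell from 80.7, 77.0 and 83.2 FPKM to 9.25, 6.42 and 8.82. Cdk1, the mitotic kinase, rose from 5.08, 3.47 and 3.76 to 73.6, 87.6 and 71.0 FPKM (log2 difference 3.95, SE 0.211, adjusted p = 4.8e-06), and Cdc20, which activates the anaphase-promoting complex, rose by 1.74 on the log2 scale. Reads of Cdc20 cannot be told apart from those of Elovl1 on the opposite strand where they overlap.

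Oocyte-specific gene families fell nearly as whole lists. All 12 tested oocyte Fbxw genes, F-box genes clustered on chromosome 9, fell at a median of -4.35, and 8 of 10 oocyte NLRP genes fell at -3.46. Members of these families are close copies that can share reads, so single members are uncertain. Fbxw14 stood at 205, 154 and 163 FPKM in zygotes and 4.09, 2.97 and 3.70 in 2-cell embryos, and Nlrp4f at 475, 320 and 330 against 4.54, 4.73 and 5.14. The differences were 48.4-fold and 78.1-fold, with no overlap between stages. Bcl2l10, an oocyte member of the BCL2 family of death regulators, was in no list but among the 10 most abundant zygote genes, and fell from 10129, 12506 and 11352 FPKM to 255, 324 and 293.

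Maternal chromatin factors fell in 9 of 15 cases and rose in 2, at a median of -1.60. H1foo, the linker histone of the oocyte, went from 549, 569 and 631 to 28.0, 27.5 and 16.3 FPKM (log2 difference -4.58, SE 0.223, adjusted p = 4.1e-06). Npm2, which decondenses sperm chromatin, was 75.1-fold lower, and Tet3, which oxidizes 5-methylcytosine in the zygote, 13.6-fold lower. Dppa3 (Stella), which shields the maternal genome from demethylation, kept a high level, at 7792, 5340 and 5984 FPKM in zygotes and 2872, 2491 and 3782 in 2-cell embryos. Its stages did not overlap, but the fold of 2.09 was close to the threshold, and the log2 difference of -1.07 became -0.94 without zygote replicate 1, -0.98 without 2-cell replicate 1 and -0.87 without 2-cell replicate 2, each of which ended the call. As deposited it was -0.81 and not called, and with no filter on low values its SE rose from 0.188 to 2.96 and the call was lost.

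**Figure D2:**
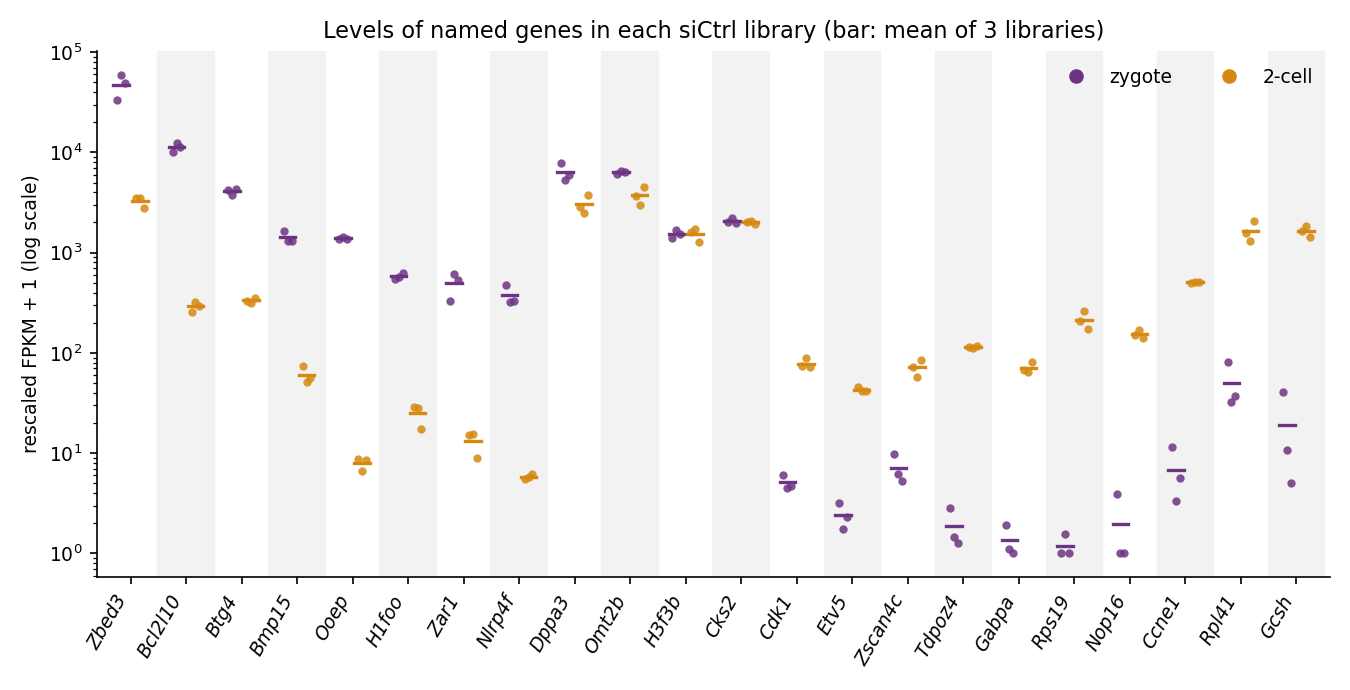
Rescaled FPKM + 1 (log scale) of named genes in each of the 3 zygote and 3 2-cell siCtrl libraries, with a bar at the mean of a stage. Maternal genes on the left drop by 12.3-fold (Btg4) to 199-fold (Ooep), the stages of Dppa3, Omt2b, H3f3b and Cks2 lie closer together, and the genes on the right rise, with some zygote libraries listed at 0 for Gabpa, Rps19 and Nop16.

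Most 2-cell genes linked to Dux and MERVL rose. Of 39 annotated members 31 had a mean high enough to be tested, 27 rose, 1 fell and 3 were neither, at a median of 3.38, and the share of the list went from 0.121, 0.0750 and 0.0848% of FPKM to 0.772, 0.699 and 1.05%. Many are recent copies of each other in clusters (Zscan4, Tdpoz, Usp17l and Gm genes), so that reads can be split between copies and members are not independent. Zscan4c, a marker of the 2-cell state that lengthens telomeres, stood at 8.90, 5.27 and 4.25 FPKM in zygotes and 71.9, 57.0 and 84.0 in 2-cell embryos. Zygote replicate 1 held the highest zygote value, below every 2-cell value, and the difference was 11.6-fold (log2 difference 3.37, SE 0.285, adjusted p = 2.5e-05). Tdpoz4, a BTB domain gene, rose from 1.85, 0.466 and 0.269 to 114, 110 and 117 FPKM. Dux, the homeobox factor that activates this set, was the member that fell: it stood at 6.43, 5.42 and 5.39 FPKM in zygotes and was listed at 0, 0 and 0.387 in 2-cell embryos (log2 difference -2.59, adjusted p = 7.8e-05). Between the stages compared, Dux was thus higher at the one at which its set was low, and times between them were not sampled.

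The promoter windows of this list held few CpG. The 31 windows had a median of 2 CpG, against 21 for all genes tested. CAAGGTCA, the element bound by NR5A and ESRR receptors, was in 22.6% of them against 1.07% of all, and GGATTA, the core bound by OBOX and OTX homeobox factors, in 35.5% against 6.10%. Both motifs were searched on either strand and do not contain each other. The 7 windows with CAAGGTCA were those of 6 Zscan4 copies and Pramef6, and the 11 with GGATTA included Zfp352, Tdpoz1, Sp110, Tmem92 and several Gm copies, so the shares count copies of a sequence as much as separate promoters. Zscan4f, which rose from 2.08, 5.08 and 4.41 to 79.9, 76.8 and 88.2 FPKM, is shown as the called Zscan4 member with the largest rise (chosen after its values were seen). Its window is chr7:11983014-11983313 on the plus strand of mm9, and capitals mark CAAGGTCA on the minus strand at -213, TATAAA at -31 and CCAAT at -19.
Zscan4f: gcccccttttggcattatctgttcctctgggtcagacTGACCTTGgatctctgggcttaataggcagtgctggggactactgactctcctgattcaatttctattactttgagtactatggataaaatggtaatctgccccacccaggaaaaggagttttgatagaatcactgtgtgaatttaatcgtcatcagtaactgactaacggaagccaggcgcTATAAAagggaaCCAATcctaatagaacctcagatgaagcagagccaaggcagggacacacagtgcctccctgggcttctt
Nr5a2, which encodes an NR5A receptor, rose from 8.80, 6.32 and 5.53 to 30.6, 41.9 and 17.5 FPKM (log2 difference 1.91, SE 0.339, adjusted p = 0.0013). Binding at these windows was not measured, and whether Nr5a2 acts on the genes of this list was not tested.

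Obox genes, homeobox genes of the oocyte and early embryo, split by member. Obox1 stood at 1762, 1248 and 1354 FPKM in zygotes and 24.7, 31.5 and 34.3 in 2-cell embryos, and Obox5 at 2003, 1367 and 1464 against 152, 80.7 and 199. Obox6 was at 11.5, 0.530 and 0 in zygotes and 380, 269 and 473 in 2-cell embryos (log2 difference 7.10, SE 0.843, adjusted p = 0.00015), and Obox3 rose 35.3-fold. These are close copies whose reads may be shared. With the oogenesins, 7 of the 9 genes of this list fell and 2 rose.

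Pluripotency and early lineage factors rose in 19 of 28 cases and fell in 2, at a median of 1.93. Klf5, a Krüppel-like factor of the first lineage decision, was at 3.32, 0 and 0.758 FPKM in zygotes and 69.9, 64.7 and 61.9 in 2-cell embryos (log2 difference 5.08, SE 0.484, adjusted p = 4.6e-05). Zfp42 (Rex1) and Myc, a general growth regulator, rose by 4.80 and 4.17 on the log2 scale. Pou5f1 (Oct4), which marks pluripotent cells, fell instead, from 71.0, 65.4 and 73.5 to 17, 22.3 and 17 FPKM. By coverage of the last exon alone its log2 difference was -0.90 rather than -1.86 and it was not called. Gata3, a trophectoderm factor, fell from 20.5, 19.5 and 23.3 to 3.91, 0.830 and 0.418 FPKM.

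Of the genes that the study knocked down, Etv5 had the largest rise in control embryos. This ETS-family factor stood at 2.16, 0.759 and 1.3 FPKM in control zygotes and 45.2, 40.4 and 40.3 in control 2-cell embryos, 29.8-fold higher (log2 difference 4.20, SE 0.267, adjusted p = 7.9e-06). Mlx, the partner of the glucose-sensing Mondo factors, was at 1.98, 4.06 and 4.63 FPKM in zygotes and 2.22, 4.09 and 3.38 in 2-cell embryos, with overlapping stages and a log2 difference of -0.08 (SE 0.336, adjusted p = 0.84). Rfx1, a winged-helix factor of the X-box, was called higher at 3.28, 3.64 and 3.83 FPKM against 9.77, 8.03 and 7.33. Its log2 difference of 1.03 was near the threshold and fell below it without zygote replicate 1 (0.96), zygote replicate 2 (0.99) or 2-cell replicate 1 (0.97). Among the 16 other DNA-binding factors tested with them 4 rose and 5 fell, at a median of -0.43. Gabpa, an ETS factor of housekeeping promoters, was at 0.942, 0.119 and 0 FPKM in zygotes and 67.2, 63.6 and 80.0 in 2-cell embryos, although Atp5j overlaps it on the opposite strand. The CCAAT-binding NF-Y subunits moved apart, with Nfya 4.48-fold lower and Nfyb 25.7-fold higher.

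The cytosolic ribosome was the list with the highest share of risers. Of 86 annotated ribosomal protein genes 85 were tested and 81 (95.3%) rose and none fell, at a median log2 difference of 4.02. The 4 others, Rpl15, Rpl22, Rpl30 and Rpl31, had log2 differences of 0.65, 0.40, -0.17 and 0.84. Their summed share was 0.179, 0.121 and 0.136% of FPKM in zygotes and 3.05, 3.24 and 3.14% in 2-cell embryos. Rpl41, a short protein of the large subunit, was the most abundant named member, at 80.0, 31.5 and 36.0 FPKM in zygotes and 1568, 1292 and 2070 in 2-cell embryos. Rplp0, of the ribosomal stalk, went from 38.2, 41.2 and 41.8 to 756, 957 and 733 FPKM (log2 difference 4.29, SE 0.152, adjusted p = 2.8e-06). Rps19 was listed at 0, 0.574 and 0 in zygotes and at 208, 262 and 172 FPKM in 2-cell embryos.

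Those transcripts are short, and short transcripts rose more as a class. Genes with a longest transcript under 1 kb had a median log2 difference of 1.28 with 46.5% called higher, against -0.14 and 26.6% for those over 5 kb. The ribosomal share of 95.3% was above that of its length class. The coverage was also spread differently along transcripts: in genes with 4 exons or more, the last exon took a median of 61.6, 46.6 and 45.0% of the coverage of the first and last exons in zygotes and 70.7, 69.5 and 72.9% in 2-cell embryos. When genes were measured by coverage of the last exon alone, 46 of 77 ribosomal genes rose and 1 fell, at a median of 3.11, and Rps19 was then not called (1.74). Of all 11600 genes tested by last-exon coverage, 3898 rose and 2849 fell, at a median of 0.30. List counts by last-exon coverage, here and below, are to be read against these. Only 4 of the ribosomal genes tested had a transcript of at least 2 kb, and the fit of such genes alone called the same 3 of them higher as the fit of all genes. Rpl30 and other members have many processed copies in the genome, and how their reads were shared was not tested.

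**Figure D3:**
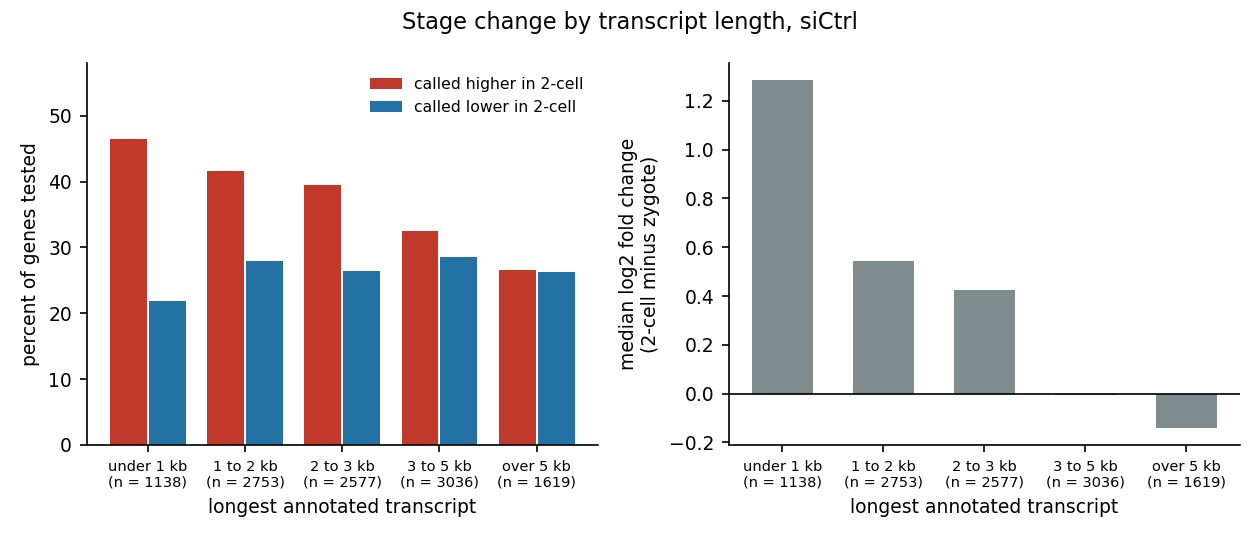
Genes called higher and lower as a percent of genes tested (left) and the median log2 difference between stages (right), by the length of the longest annotated transcript, with the number of genes in each class. The share called higher goes from 46.5% under 1 kb to 26.6% over 5 kb, while the share called lower stays between 21.8 and 28.6%.

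Most genes that build ribosomes rose as well. Of 69 genes of ribosome biogenesis and RNA polymerase I 53 rose and 2 fell, at a median of 2.41, and by last-exon coverage 55 rose and 4 fell. Nop2, a methyltransferase of the large ribosomal RNA, was at 1.52, 0 and 0.648 FPKM in zygotes and 81.2, 122 and 96.3 in 2-cell embryos (log2 difference 5.95, SE 0.357, adjusted p = 6.7e-06). Polr1c, a subunit of RNA polymerases I and III, rose 27.4-fold. Ncl, nucleolin, was at 80.2, 84.4 and 98.5 FPKM in zygotes and 77.9, 109 and 76.8 in 2-cell embryos and was not called (log2 difference -0.01), although by its last exon alone it was higher by 2.14 on the log2 scale and called. It holds small nucleolar RNA genes on the same strand. Mitochondrial ribosomal proteins were less uniform, with 34 of 74 higher and 16 lower, at a median of 0.84. Mrpl20 rose from 5.21, 1.82 and 2.00 to 157, 182 and 152 FPKM, and Mrpl3 fell from 57.8, 93.2 and 79.1 to 27.4, 30.8 and 24.7, a fall that was not called by its last exon (-0.71). Of 40 translation initiation factors 23 rose and 4 fell.

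The windows before these genes held the ETS element CCGGAAG often. It was in 41.2% of the cytosolic ribosomal protein windows, 42.0% of ribosome biogenesis, 41.9% of mitochondrial ribosomal proteins and 45.7% of snRNP and core splicing proteins, against 18.9% of all 11120 windows, 20.6% of genes called higher and 16.1% of genes called lower. The snRNP list, with 17 of 46 higher and 9 lower, was close to the background of all genes in its calls. CCGGAAG was also in 40.5% of the DNA replication windows, where 11 of 42 genes rose. It was in 37.0% of the windows of RNA polymerase II and general factors and 35.1% of those of chaperones. CACGTG, the E-box of MLX and its relatives, was in 24.6% of the ribosome biogenesis windows against 10.2% of all. That was not particular to this list. The share was higher in p53 targets (31.2% of 16 windows), histone lysine demethylases (28.6% of 14) and histone chaperones. It was lower in cytosolic (9.41%) and mitochondrial (6.76%) ribosomal proteins. A match of letters is a description and says nothing of binding. For the lists of both ribosomes and of biogenesis, 1 window is shown of those that hold CCGGAAG, that of the gene with the largest called rise among them. The genes were thus picked for the motif, and Rps19, Rps29 and Nop16 had larger rises in these lists. Capitals stand at that element, the GC box, the CCAAT box and the E-box on either strand. The windows are chr9:66793675-66793974 for Rps27l, chr6:125081651-125081950 for Nop2 and chr4:155177477-155177776 for Mrpl20, all on the plus strand of mm9.
Rps27l: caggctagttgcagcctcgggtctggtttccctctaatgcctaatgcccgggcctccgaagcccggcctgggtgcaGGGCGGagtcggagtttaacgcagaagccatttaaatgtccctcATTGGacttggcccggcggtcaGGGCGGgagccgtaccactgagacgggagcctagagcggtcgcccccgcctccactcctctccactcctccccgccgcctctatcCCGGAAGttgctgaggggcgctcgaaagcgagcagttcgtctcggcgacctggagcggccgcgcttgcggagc
Nop2: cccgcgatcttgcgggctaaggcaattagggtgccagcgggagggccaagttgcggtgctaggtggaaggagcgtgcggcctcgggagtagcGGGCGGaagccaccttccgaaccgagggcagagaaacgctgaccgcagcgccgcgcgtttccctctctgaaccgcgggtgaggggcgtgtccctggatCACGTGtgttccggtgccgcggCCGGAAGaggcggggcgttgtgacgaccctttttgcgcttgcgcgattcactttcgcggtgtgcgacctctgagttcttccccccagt
Mrpl20: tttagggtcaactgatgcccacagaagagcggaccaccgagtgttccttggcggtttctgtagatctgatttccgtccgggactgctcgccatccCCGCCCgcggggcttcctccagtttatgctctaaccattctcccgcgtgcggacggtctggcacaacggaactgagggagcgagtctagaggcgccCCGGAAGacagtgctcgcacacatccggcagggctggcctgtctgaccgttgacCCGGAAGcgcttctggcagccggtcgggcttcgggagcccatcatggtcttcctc
CCGGAAG began at -23 in Rps27l, at -38 in Nop2 and at -59 and -5 in Mrpl20, and Nop2 also held CACGTG at -60. The windows had 28, 35 and 25 CpG. Rps27l, a ribosomal protein paralog that p53 induces, was listed at 0 in all 3 zygote libraries and stood at 98.1, 101 and 74.9 FPKM in 2-cell embryos.

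**Figure D4:**
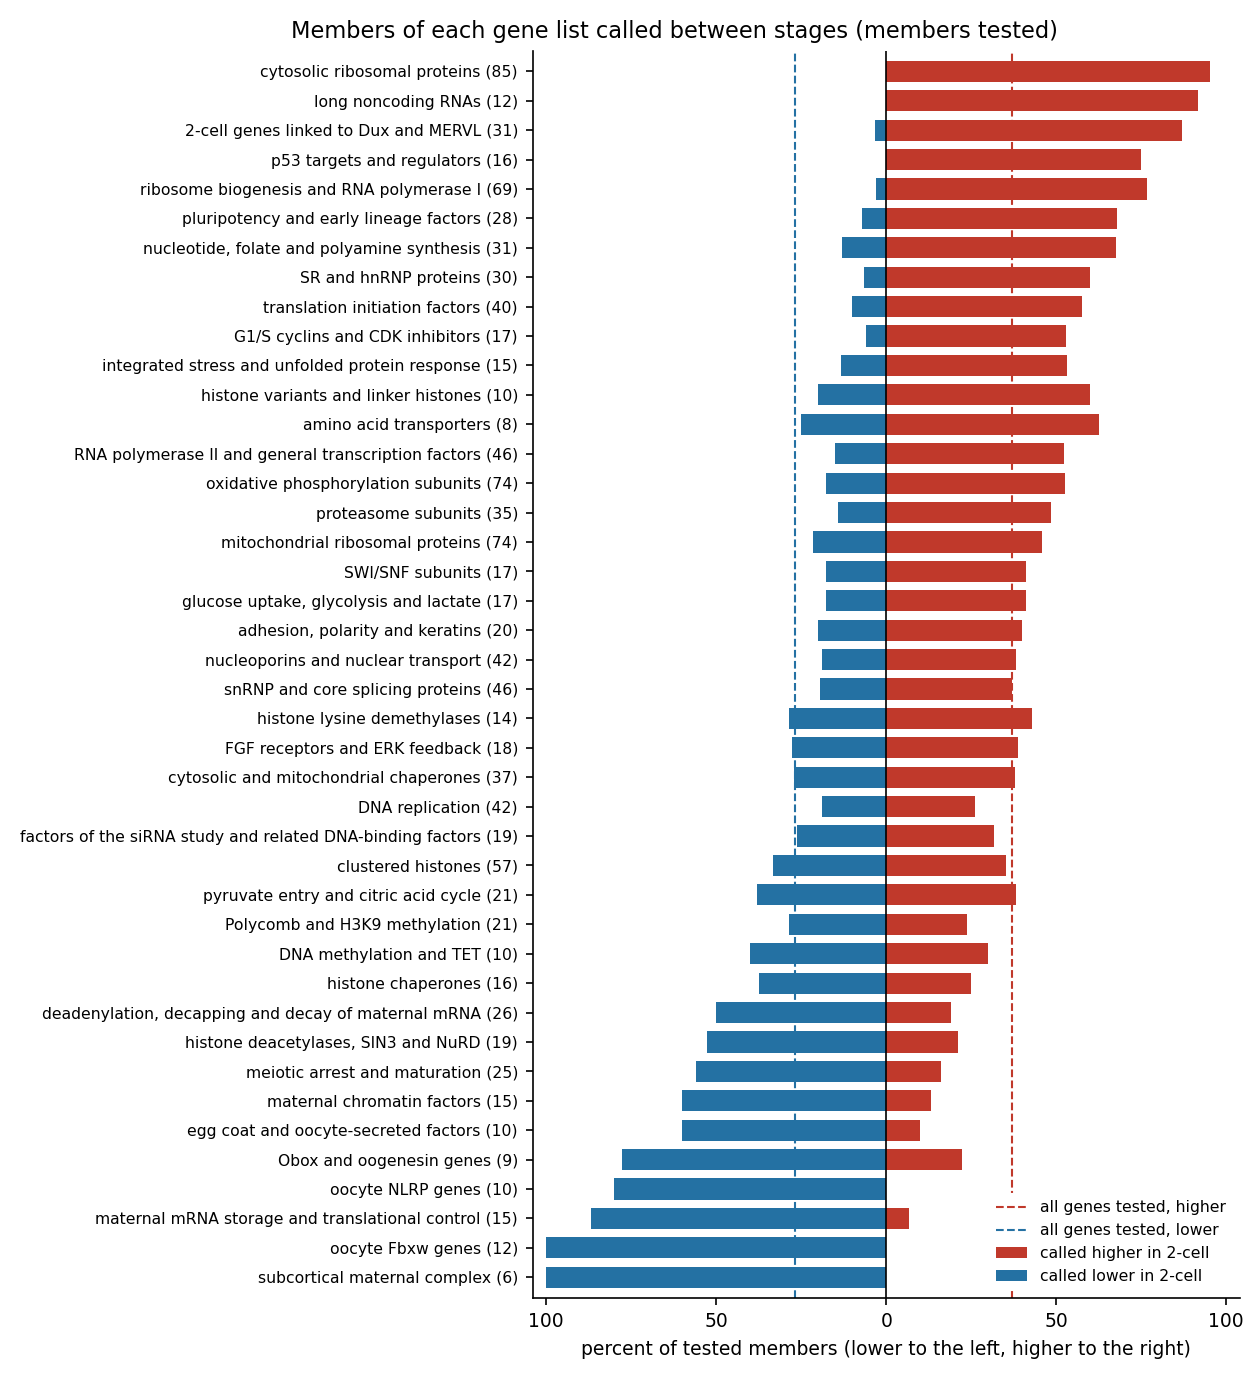
Percent of the tested members of each of 42 gene lists called higher (right) and lower (left) in 2-cell embryos, with the number tested in parentheses and dashed lines at the 37.0% and 26.9% of all genes tested. Cytosolic ribosomal proteins, the long noncoding RNAs chosen by name and 2-cell genes are at the top with 95.3, 91.7 and 87.1% higher. The subcortical maternal complex and the oocyte Fbxw genes are at the bottom with every tested member lower.

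Lists of chaperones, splicing regulators, proteasome subunits and RNA polymerase II ran from near the background share of risers upward. Of 37 chaperones 14 rose and 10 fell, close to the background of 37.0 and 26.9% (by last-exon coverage 5 fell). The genes named next are single members and say nothing of the list. Dnajc2 was among those that fell, from 20.7, 28.9 and 31.8 to 4.4, 2.62 and 3.65 FPKM. Heat shock genes known for the 2-cell burst were among the risers. Hspa8, the constitutive HSP70, went from 36.1, 20.1 and 18.2 to 393, 436 and 322 FPKM (log2 difference 3.95, SE 0.268, adjusted p = 9.9e-06), and Hspa1a, the inducible form, from 0.726, 0.0848 and 0.295 to 55.1, 46.2 and 28.1, with the near-identical Hspa1b at 0, 0.272 and 0.119 against 14.4, 8.45 and 11.9. Of 30 SR and hnRNP proteins, which set splice site choice, 18 rose and 2 fell, and of 35 proteasome subunits 17 rose and 5 fell. Of 46 subunits of RNA polymerase II and general factors 24 rose and 7 fell. Polr2a, the catalytic subunit, was 3.98-fold higher, and Tbpl2, the TBP of the oocyte, was at 9.68, 7.93 and 4.67 FPKM in zygotes and listed at 0, 0 and 0.800 in 2-cell embryos.

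Metabolic genes moved in both directions. Nucleotide, folate and polyamine synthesis rose in 21 of 31 genes and fell in 4, at a median of 1.68. Impdh2, the rate-limiting enzyme of guanine nucleotide synthesis, was at 1.48, 0.0618 and 0 FPKM in zygotes and 90.6, 108 and 91.3 in 2-cell embryos, and Odc1, which starts polyamine synthesis, rose from 16.6, 15.7 and 17.2 to 259, 280 and 285. Mthfd2, of the mitochondrial folate cycle, was 3.38-fold lower. Oxidative phosphorylation subunits rose in 39 of 74 genes and fell in 13, at a median of 1.42, but by last-exon coverage 22 of 61 rose and 11 fell.

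A pair of glucose transporters moved in opposite directions. Slc2a1 (GLUT1) fell from 18.4, 18.4 and 21.3 to 4.71, 4.22 and 1.36 FPKM (log2 difference -2.30, SE 0.356, adjusted p = 0.00062). Slc2a3 (GLUT3) was at 0.242, 0 and 0 in zygotes and 10.1, 12.3 and 18.5 in 2-cell embryos (log2 difference 3.73, SE 0.297, adjusted p = 2.0e-05). Neither gene had overlapping stages. Ldhb, the lactate dehydrogenase of the oocyte, fell 11.8-fold, and Cs, citrate synthase, 3.27-fold. Of 17 tested genes of glucose uptake and glycolysis 7 rose and 3 fell (41.2 and 17.6%). Of 21 of pyruvate entry and the citric acid cycle 8 rose and 8 fell (38.1% each). Of all genes tested 37.0% rose and 26.9% fell. Among amino acid transporters 8 of 16 were tested, 5 rose and 2 fell, and Slc1a5 (ASCT2) was at 0.266, 0 and 0 FPKM in zygotes and 72.8, 93.4 and 56.5 in 2-cell embryos.

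Chromatin regulators moved in both directions. Histone deacetylase, SIN3 and NuRD genes fell in 10 of 19 cases and rose in 4, at a median of -1.26. Hdac1 was at 1.47, 1.65 and 0 FPKM in zygotes and 48.0, 48.8 and 46.0 in 2-cell embryos (log2 difference 4.70, SE 0.382, adjusted p = 2.1e-05). Hdac2, its paralog in the same complexes, went from 38.5, 61.9 and 67.4 to 13.9, 11.5 and 12.9 FPKM (log2 difference -2.01, SE 0.248, adjusted p = 0.00018). The order of the pair was thus the reverse at the later stage, although by its last exon Hdac2 differed by -0.61 and was not called. Mta2, a NuRD subunit, rose 79.8-fold and Rbbp7, a histone-binding subunit of the same complex, fell 4.51-fold. Kdm5b, an H3K4 demethylase, rose from 3.65, 1.35 and 1.62 to 72.9, 54.2 and 63.5 FPKM. Ezh2, the H3K27 methyltransferase, fell from 55.6, 43.4 and 101 to 12.9, 11.4 and 5.64, but was not called by its last exon. The DNA methylation and TET list was down in summed share, from 0.654, 0.739 and 0.981% to 0.120, 0.103 and 0.0989%, while by gene 3 of 10 rose and 4 fell.

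Among histone variants H2afz, the H2A.Z of active and poised promoters, rose 41.3-fold, from 31.1, 23.1 and 19.2 to 958, 1310 and 762 FPKM. H3f3b, which encodes H3.3, was at 1409, 1680 and 1519 FPKM in zygotes and 1609, 1725 and 1277 in 2-cell embryos, with overlapping stages (log2 difference -0.01, SE 0.140, adjusted p = 0.97). Clustered histone genes split evenly, with 20 of 57 higher and 19 lower (35.1 and 33.3%, against 37.0 and 26.9% of all genes tested). The number lower was 12 without zygote replicate 2 and 10 with no filter on low values. Their mRNAs usually lack poly(A) tails, on which these libraries were primed, and their members are near-identical copies.

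**Figure D5:**
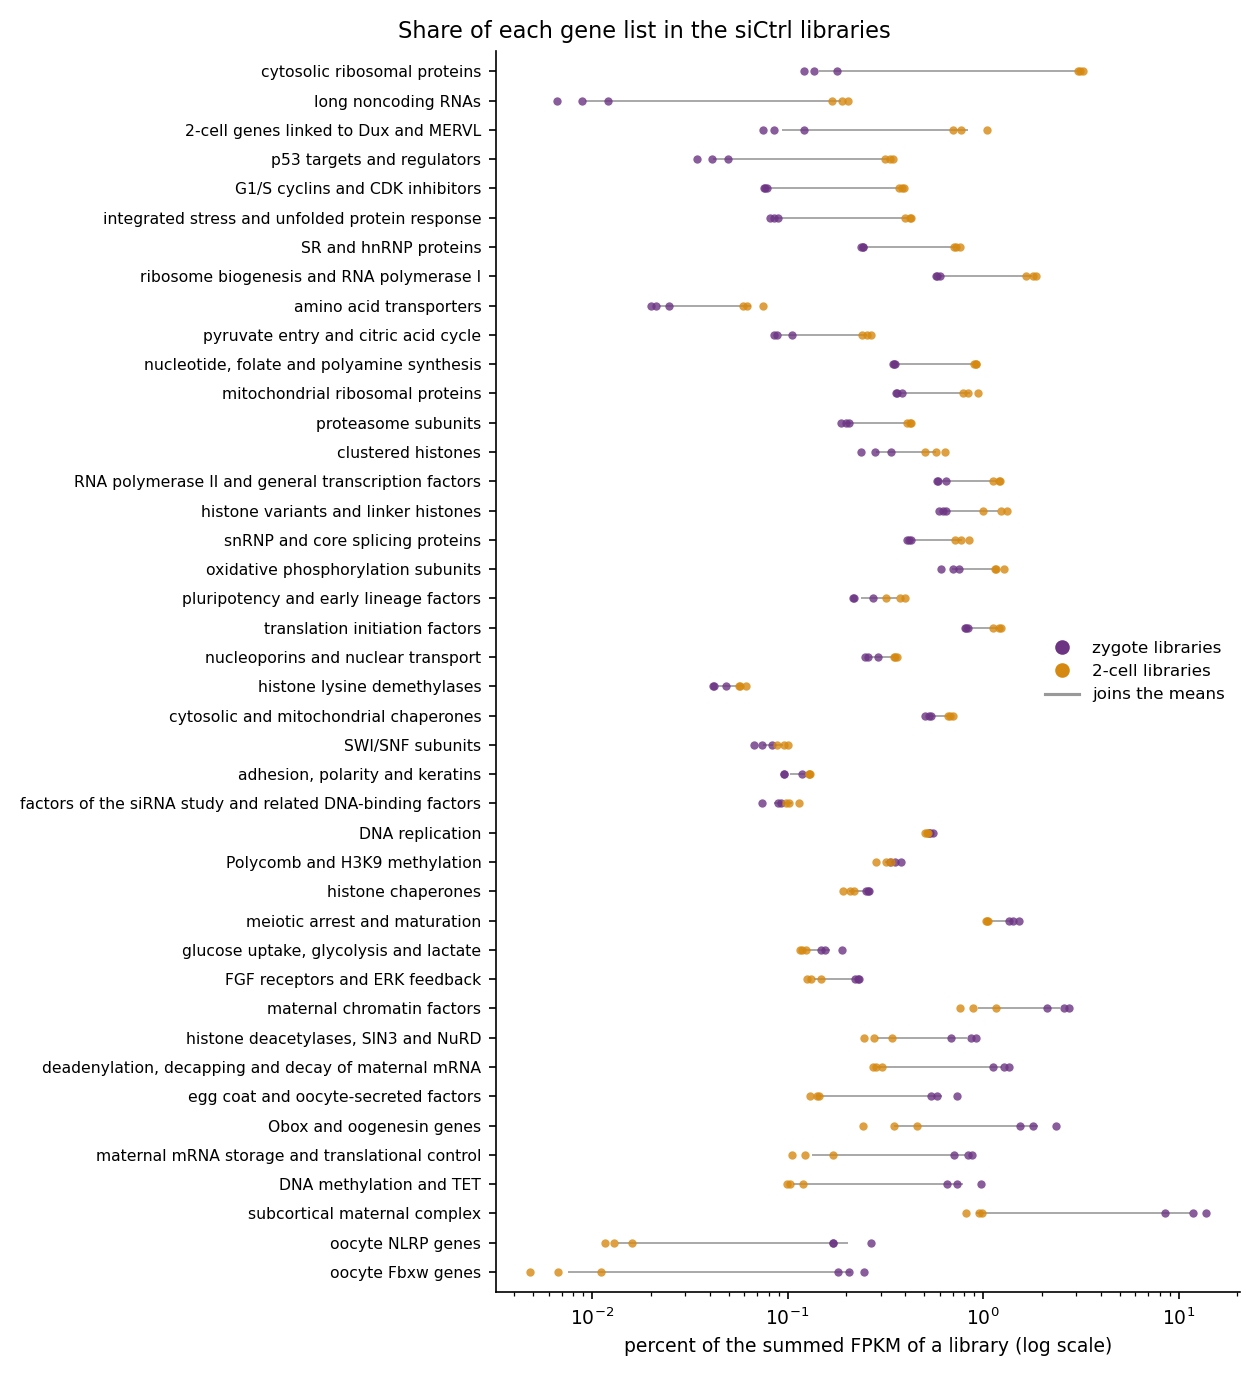
Percent of the summed FPKM of a library (log scale) taken by each of 42 gene lists in the 3 zygote and 3 2-cell siCtrl libraries, ordered by the ratio of stage means, with a line between the means. The cytosolic ribosomal proteins go from 0.121 to 0.179% to 3.05 to 3.24%, and the subcortical maternal complex from 8.49 to 13.8% to 0.814 to 0.987%.

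The shares plotted by list gave the smallest exact two-sided permutation p of 0.1 in every list but Polycomb and H3K9 methylation, which had p = 0.2. The share of a list follows its most abundant members, as that of the subcortical maternal complex follows Zbed3, and can go against its count of called genes.

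The shares of risers among G1/S cyclins and among DNA replication genes lay on either side of the 37.0% of all genes tested. Of 17 G1/S cyclins and CDK inhibitors 9 rose (52.9%) and 1 fell, at a median of 1.40. Ccne1, cyclin E1, went from 10.6, 2.31 and 4.63 to 492, 511 and 513 FPKM (log2 difference 6.40, SE 0.406, adjusted p = 7.8e-06), and Cdc25c, the phosphatase that activates CDK1, rose by 5.26 on the log2 scale. Cdkn1b (p27) fell by 2.76. Cdkn1a (p21) was at 8.22, 5.68 and 6.23 FPKM in zygotes and 0.191, 138 and 91.6 in 2-cell embryos and was not called (adjusted p = 0.36); without 2-cell replicate 1 its log2 difference of 1.70 became 3.94 and was called. Of 42 DNA replication genes 11 rose (26.2%) and 8 fell, at a median of 0.04, and Pcna, the sliding clamp, had a mean of 146 FPKM (SD 3.83, n = 3) in zygotes and 152 (SD 31.3, n = 3) in 2-cell embryos, with overlapping stages.

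Of 16 p53 targets and regulators 12 rose and none fell, at a median of 1.90, while Trp53 itself was at 33.4, 34.7 and 42.6 FPKM in zygotes and 44.9, 19 and 48.3 in 2-cell embryos (adjusted p = 0.84). Gadd45b rose from 10.3, 3.42 and 5.02 to 293, 396 and 272 FPKM, and Sesn2, which restrains mTORC1, from 6.71, 0.764 and 2.15 to 170, 152 and 192. Mdm2, the ubiquitin ligase of p53, was 2.75-fold higher. Of 15 genes of the integrated stress and unfolded protein responses 8 rose and 2 fell. Trib3, a pseudokinase that answers to ATF4, rose from 0.536, 0.968 and 0.315 to 82.7, 96.4 and 90.5 FPKM (log2 difference 5.84, SE 0.231, adjusted p = 3.4e-06), and Atf4 itself was 3.06-fold higher. The embryos of both stages had been injected as oocytes and matured in vitro, and how these genes behave without such handling was not measured.

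Of 16 long noncoding RNAs chosen by name for this work, several of them Snhg genes, 12 were tested. Of these 11 rose and none fell, at a median of 3.79, which does not describe long noncoding RNAs as a class. Snhg3, a host of small nucleolar RNAs, was at 1.89, 0 and 0 FPKM in zygotes and 144, 107 and 121 in 2-cell embryos, and Malat1, a nuclear RNA of splicing speckles, rose from 7.88, 5.50 and 7.21 to 165, 124 and 137.

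Some genes crossed from low to clear levels. By levels alone, 572 genes were under 1 FPKM in all 3 zygote libraries and at 5 FPKM or more in all 3 2-cell libraries, 9.82% of the 5826 genes at 5 or more in every 2-cell library, and 135 of them were listed at 0 in every zygote library. The reverse held for 134 genes, 2.52% of 5324, with 42 listed at 0 in every 2-cell library. These are selections by level with no test. Arg1, the arginase of the urea cycle, was at 0 in all zygotes and at 60.8, 60.2 and 82.5 FPKM in 2-cell embryos, and Cd63, a tetraspanin, was at 0 in all zygotes but at 117, 105 and 9.69, so that the third 2-cell library was well below the others. Gnrh1, the gonadotropin-releasing hormone gene, was at 80.2, 49.8 and 65.8 FPKM in zygotes and 0 in all 2-cell embryos. These 3 genes and Mitd1, at 60.7, 64.9 and 72.1 against 0.407, 0 and 0.403, are named as examples chosen after their values were seen. The largest called rise was that of Gm11517, at 20.9, 0 and 1.56 FPKM against 1348, 1128 and 1917, which overlaps Cbx1 on the opposite strand. Gcsh, the H protein of glycine cleavage, was at 40.0, 9.81 and 4.03 against 1639, 1862 and 1418, with zygote replicate 1 highest in both genes.

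The stage change was also measured in libraries that the control comparison did not use. In siEtv5 embryos, with 3 zygote and 2 2-cell libraries in a fit of their own, 37.9% of 10903 genes were called higher and 23% lower. Over the 10465 genes tested in both, 3276 were called higher in both, 86.3% of the siCtrl list and 83.3% of the siEtv5 list, and 4 siCtrl risers were called lower under siEtv5. For genes called lower the shared 2071 were 70.8% of the siCtrl list and 84.2% of the siEtv5 list, with 2 called the other way. The knockdown itself is part of these libraries, and the shares are no test.

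A test of the difference between the control transition and that under a knockdown called 35 of 11095 genes for siEtv5 (0.315%) and 127 of 10814 for siMlx (1.17%), as the interaction of stage and siRNA in limma. Unadjusted p-values under 0.05 numbered 2005 and 1742. Without zygote-siEtv5 replicate 2 the first count was 710, without zygote-siCtrl replicates 1, 2 and 3 it was 16, 20 and 12, and without zygote-siEtv5 replicates 1 and 3 it was 60 and 14, and without 2-cell-siCtrl replicate 3 it was 56. For siMlx it was 51, 19 and 18 without zygote-siCtrl replicates 1, 2 and 3, 20 and 47 without zygote-siMlx replicates 1 and 3, 54, 78 and 50 without 2-cell-siCtrl replicates 1, 2 and 3, and 193, 74 and 280 without 2-cell-siMlx replicates 1, 2 and 3. Neither count is therefore a stable measure. The knockdown libraries differed from siCtrl in coverage. The last exon's share, as above, was 39.8, 39.6 and 36.4% in siEtv5 zygotes and 27.9, 29.7 and 34.1% in siMlx zygotes. In siCtrl zygotes it was 61.6, 46.6 and 45.0%. In 2-cell embryos it was 74.4 and 76.5% under siEtv5, 47.0, 59.6 and 71.5% under siMlx and 70.7, 69.5 and 72.9% in siCtrl. Of these libraries 2-cell-siMlx replicate 1 had the lowest depth, 404.4 Mb. The effect on the interactions was not tested. Azin1, which raises ornithine decarboxylase activity, had the lowest adjusted p together with Gpx2 and Cd1d1, whose interactions were larger but which were listed at 0 in some libraries. It stood at 9.30, 12.9 and 11.8 FPKM in siCtrl zygotes and 93.3, 83.9 and 74.6 in siCtrl 2-cell embryos, against 23.7, 29.0 and 34.4 in siEtv5 zygotes and 18.8 and 18 in siEtv5 2-cell embryos (interaction of -3.40 on the log2 scale, SE 0.342, adjusted p = 0.0015). It rose in the control embryos and not under siEtv5, in every library.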

How the data were processed

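RNA-seq libraries were made by the authors from pooled embryos with poly(A)-primed, amplified cDNA and a kit that does not mark strand. The reads were aligned to mm9 with STAR 2.5.2b (submitters' notes) and quantified on RefSeq transcripts with StringTie (1.3.4 in the notes, 1.3.3b in the file headers), without a strand option. The deposited values are the FPKM and coverage per transcript, and read counts, which the authors tested with edgeR, were not analysed here. Overlapping genes on opposite strands cannot be told apart.

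FPKM was summed over the transcripts of a gene, giving 22619 named genes. Left out were 976 unnamed transcripts, which held 0.610 to 1.02% of FPKM in the siCtrl libraries. The deposited coverage of the last exon served as an alternative gene value. Aligned bases per library followed from coverage over FPKM. No molecular identifiers were used, so depth bounds reads and not molecules.

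Rescaling of the libraries in a fit used their median ratio, taken on genes that reached 1 FPKM in each library. The test was limma 3.58.1 (trend, R 4.3.3) on log2(FPKM + 1) of genes whose rescaled mean reached 1 FPKM, two-sided, with Benjamini-Hochberg adjustment over all genes tested, on the siCtrl libraries alone. The interaction of stage and siRNA was fitted on the siCtrl libraries with those of siEtv5 or siMlx. The script was tested on simulated data. Single values of a library were set against each other between stages with exact permutation tests. Python 3.11.15, numpy 2.4.6, pandas 2.3.3, scipy 1.17.1 and matplotlib 3.10.9 were used. Promoter windows ran from 250 bases before to 50 bases after the start in mm9 (98.9% of 189020 introns began with GT and ended with AG, against 0.39% after a shift of 50 bases), on both strands.

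The comparison, the 42 gene lists, the marker lists and the motifs were chosen with earlier results of these data known. Named genes were the 10 largest rises and 10 largest falls among called genes that averaged 5 FPKM or more and did not overlap between stages, the first 3 genes of each list, up to 4 called members with the largest rise and up to 4 with the largest fall per list (where none was called, up to 3 with the lowest p), the 10 most abundant genes of each stage, up to 5 genes with the lowest p per interaction, and Etv5, Mlx and Rfx1. Genes named from marker lists (among them Zscan4c, Amhr2, Prm2 and Gata4) or as examples are outside this rule, as are the uncalled ribosomal protein genes.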

Additional observations from a re-analysis of the deposited data

Results flagged for a closer look

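The stage change differed between siEtv5 and siCtrl embryos, by the interaction term in limma, for 35 genes, and between siMlx and siCtrl embryos for 127. The control libraries are shared by both tests, and the knockdown libraries differed from them in coverage of the last exon, as given above. Values are FPKM rescaled over the libraries of each fit, and interactions are the stage change of the knockdown minus that of siCtrl on the log2(FPKM + 1) scale.

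For siEtv5 the 5 genes with the lowest p were Gpx2 (4.41), Azin1 (-3.40), Cd1d1 (-4.04), Socs1 (-2.90) and Ptp4a1 (-3.24), with adjusted p of 0.0015 for the first 3 and 0.0073 for the others. Gpx2, a glutathione peroxidase, was at or below 0.706 FPKM in every control library and siEtv5 zygote and at 21.7 and 21.9 in siEtv5 2-cell embryos. Cd1d1, a lipid antigen presenter, was at 13.3, 10.2 and 14.2 FPKM in siCtrl 2-cell embryos and listed at 0 in both siEtv5 2-cell libraries. Socs1, an inhibitor of cytokine signalling, was at 148, 128 and 147 FPKM in siCtrl 2-cell embryos and 49.2 and 57.5 under siEtv5, with higher siEtv5 zygotes (177, 307 and 220) than siCtrl zygotes (66.0, 89.1 and 86.0). In the fit of all 8 groups Socs1 (adjusted p = 0.16) and Ptp4a1 (0.25) were not called.

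For siMlx they were 1600029D21Rik (-3.10), Slc10a6 (-2.60), Psmg3 (3.07), Mir717 (-3.21) and 3830417A13Rik (-2.89), all with an adjusted p of 0.010. Psmg3 was not called in the fit of all 8 groups (adjusted p = 0.34), and Mir717 neither there (0.054) nor with voom on estimated fragments (0.16). Slc10a6, a transporter of sulfated steroids, rose from 7.10, 5.16 and 6.41 to 56.1, 64.8 and 60.1 FPKM in siCtrl embryos and was at 10.5, 8.67 and 10.9 in siMlx zygotes and 11.8, 15.8 and 16 in siMlx 2-cell embryos. 1600029D21Rik was at 5.83, 8.82 and 8.35 FPKM in siCtrl 2-cell embryos and listed at 0 in all siMlx libraries. Psmg3, a proteasome assembly chaperone, was at 2.29, 0.655 and 1.28 FPKM in siMlx zygotes and 27.9, 34.6 and 40.7 in siMlx 2-cell embryos, against 11.1, 11 and 13.9 in siCtrl 2-cell embryos.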

How the results depend on the processing

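The control counts stayed within 1.5 times of 4112 higher and 2989 lower under all alternatives except a limit to transcripts of at least 2 kb (2530 and 1903 of 7240 genes). They were 4128 and 2940 with a pseudocount of 0.1, 3877 and 2719 with no filter, 2770 and 2090 with a filter at 5 FPKM, 4452 and 2603 as deposited, 3946 and 3197 with voom on estimated fragments, 3634 and 2919 from a fit of all 8 groups, and 3931 to 4080 and 2818 to 2928 with each library left out. Added after seeing the data, coverage of the last exon gave 3898 and 2849, and the median change set to 0 gave 3774 and 3430. The labels do not say whether a replicate number pairs zygotes with 2-cell embryos. The r of deviations was 0.0214, 0.0329 and -0.031 for the same number, which cannot exclude a shared collection. The replicate block gave 4173 and 3010 in the control comparison, 14 genes for the siEtv5 interaction and 81 for siMlx. The interaction counts moved more: for siEtv5 53 with a pseudocount of 0.1, 107 with no filter, 53 with voom, 11 with all 8 groups and 12 to 710 with a library left out, and for siMlx 72 with a pseudocount of 0.1, 62 as deposited, 54 with voom, 51 with all 8 groups and 18 to 280 with a library left out. Depth limits low genes most, and the cause of these moves was not tested. Of the 822 genes whose control call was lost with no filter, 7 were among the most abundant: limma's variance trend, fitted through the unfiltered low genes, gave 14 of the 16 genes at 1536 FPKM or more an SE over 3 times that of the filtered fit at the same log2 difference. Zbed3, Dppa3, Tcl1, C86187, Tcl1b1, Mphosph6 and AU022751 lost their calls there, so that alternative is no guide to them.

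By last-exon coverage the log2 difference of Cbx1 turned from -4.0 to 1.44, of Ncl to 2.14, of Max to 0.13 and of Psmd1 to 3.17. No gene called in the main comparison was called the opposite way under any other alternative tried, and 5 in each direction were by last-exon coverage. Without the 100 most abundant genes the difference in share of FPKM (2-cell minus zygote, percentage points) turned negative for the siRNA study's factors and relatives (-0.014), translation initiation (-0.031), chaperones (-0.053), SWI/SNF (-0.009), lysine demethylases (-0.0024), clustered histones (-0.116), adhesion (-0.015) and nucleoporins (-0.008), and 34 lists kept their direction. In 5824 of the values tried a named gene kept its call and direction or was called in neither fit, where direction was not compared. A call was lost in 99 values and gained in 36, and the direction reversed in 4 with a call in at least 1 fit.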

Other observations

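Further lists held genes that moved in each direction. Of all genes tested 37.0% rose and 26.9% fell. The shares of risers among adhesion genes (40.0%), nucleoporins (38.1%), FGF receptors and ERK feedback (38.9%) and SWI/SNF subunits (41.2%) were near the first of these. Adhesion, polarity and keratin genes rose in 8 of 20 cases and fell in 4. Cdh1, the cadherin of compaction, stood at 10.8, 9.33 and 12.7 FPKM in zygotes and 12.7, 17.6 and 18 in 2-cell embryos and was not called. Of 42 nucleoporins and transport factors 16 rose and 8 fell, and Kpna7, the importin of the oocyte, went from 86.1, 70.9 and 68.8 to 5.04, 4.27 and 4.30 FPKM (limma, log2 difference -3.78, SE 0.194, adjusted p = 4.7e-06). Of 18 FGF receptors and ERK feedback genes 7 rose and 5 fell, and Dusp6, the ERK phosphatase that ERK itself induces, rose from 0.492, 2.29 and 1.27 to 11.9, 13.5 and 17.6 FPKM. Histone chaperones rose in 4 and fell in 6 of 16 genes, with Hira, which places H3.3, 5.11-fold higher. Polycomb and H3K9 methylation genes rose in 5 and fell in 6 of 21, SWI/SNF subunits rose in 7 and fell in 3 of 17, and lysine demethylases rose in 6 and fell in 4 of 14. By last-exon coverage 2 Polycomb and H3K9 genes fell.

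By chromosome, the share of tested genes called higher ran from 28.7% on chromosome 6 to 45.6% on chromosome X, with 43.4% on chromosome 17 and a median log2 difference of 0.92 on X against 0.27 overall. Clustered histone promoters held TATAAA in 57.9% and CCAAT in 86.0% of windows, against 7.55 and 39.7% of all genes tested. Leukocyte markers summed to 1.97 to 5.63 FPKM in zygotes and 8.58 to 28.3 in 2-cell embryos, with 2 of 8 listed at 0 in all 6 libraries. Blastocyst lineage markers summed to 33.0 to 34.8 and 53.2 to 70.3, with 1 of 8 at 0. That sum mixes opposite moves. Gata4 rose from a mean of 10.6 to 54.8 FPKM and Gata3 fell from 21.1 to 1.72. Gata6 was not called, and the others were too low to be tested.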
